A study of Mus musculus with 12 samples.

Results

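The genes described here are 7 matrix metalloproteinases and 3 of their tissue inhibitors, measured as transcripts in the dorsal skin of mice. They were taken by name and not by a cut on their level, though the choice was made with earlier results of these data known. Every entry of the count table whose Ensembl identifier is named *Mmp2*, *Mmp3*, *Mmp10*, *Mmp11*, *Mmp12*, *Mmp13*, *Mmp14*, *Timp1*, *Timp2* or *Timp3* was used. These are 10 of the 52636 genes in the table, and all 10 were among the 18822 genes that passed the filter on low counts. RNA sequencing covered 4 groups with 3 libraries each, from C57BL/6 mice of 3 months whose skin was collected on day 14. The KO mice carried *Cdc42* flanked by loxP sites on both alleles and a K5-Cre transgene, in which the keratin 5 promoter drives Cre in basal keratinocytes and their progeny. The WT mice carried loxP sites on 1 or both alleles without Cre, so the alleles of the KO and WT groups differ in the transgene and may differ in the number of floxed alleles. Both of these groups received normal saline with hydroxypropyl methyl cellulose on the skin. The groups labelled WT+ZnO NPs and KO+ZnO NPs received zinc oxide nanoparticles suspended in that same vehicle. Since Cre acts only in keratinocytes, fibroblasts, blood vessels and immune cells of the KO skin should keep *Cdc42*.

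Matrix metalloproteinases are zinc-dependent enzymes that cut collagens, laminins, elastin and proteoglycans outside the cell, and most are secreted as inactive precursors. In skin they are known for wound repair, hair cycling and inflammation, and for degradation of the dermis after ultraviolet exposure. The tissue inhibitors bind the active enzymes one to one, so the balance of both families is often described beside the level of either. *Mmp14* is anchored in the cell membrane and, together with *Timp2*, activates the *Mmp2* precursor at the cell surface. Transcript levels, as measured here, do not report enzyme activity.

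Of these genes, 4 lie together on mouse chromosome 9, in a stretch that also holds other metalloproteinases. On GRCm38, with gene bounds of GENCODE release 21, *Mmp13* spans chr9:7272514-7283331, *Mmp12* chr9:7344381-7369499, *Mmp3* chr9:7445822-7455975 and *Mmp10* chr9:7502352-7510240, all on the plus strand. The other metalloproteinases are *Mmp2* at chr8:92827291-92853420, *Mmp11* at chr10:75923222-75936496 and *Mmp14* at chr14:54431612-54445364. The inhibitors are *Timp1* at chrX:20870166-20874735, *Timp2* at chr11:118301069-118355740 and *Timp3* at chr10:86300372-86349506. The 4 clustered genes have a short sequence in common as well. The AP-1 element TGAGTCA, or its reverse complement TGACTCA, was found in the 250 bases upstream of a RefSeq start of all 4, and in none of *Mmp11*, *Mmp14*, *Timp1*, *Timp2* and *Timp3*. *Mmp2* had no entry, so 9 of the 10 genes could be matched. The element was present in 4.46% of 32851 RefSeq promoters of the same length. AP-1 is the dimer of Fos and Jun proteins, and the element is a textbook feature of this gene class. The 80 bases before each start are given because *Mmp13*, *Mmp12* and *Mmp10* had the largest differences between KO and WT of the 10 genes, while their neighbour *Mmp3* was not called. They read 5′ to 3′ on the plus strand of GRCm38.p6, with the AP-1 letters in capitals.
Mmp13, chr9:7272434-7272513: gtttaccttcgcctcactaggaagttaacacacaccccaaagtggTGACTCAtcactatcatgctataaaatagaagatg
Mmp12, chr9:7347294-7347373: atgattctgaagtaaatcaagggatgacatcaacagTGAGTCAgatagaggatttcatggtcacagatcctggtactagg
Mmp3, chr9:7445742-7445821: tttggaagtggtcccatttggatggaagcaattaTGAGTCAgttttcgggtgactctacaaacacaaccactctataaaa
Mmp10, chr9:7502262-7502341: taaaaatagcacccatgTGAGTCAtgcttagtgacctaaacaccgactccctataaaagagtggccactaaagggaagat
The element began 35 bases before the start of *Mmp13*, 44 before that of *Mmp12*, 46 before that of *Mmp3* and 63 before that of *Mmp10*. For *Mmp12* it is at the downstream one of its RefSeq starts only. The letters TATAAA, on either strand, were also present upstream of *Mmp3*, *Mmp10* and *Mmp13*, against 12.4% of all promoters. A match of letters is a description of the sequence and was not tested for binding.

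Levels are given as CPM, the counts of a library divided by its total and scaled by TMM factors, in the order of replicates 1, 2 and 3. Library totals lay between 21076320 and 28867802 counts. *Cdc42*, the deleted gene, was at 606, 628 and 616 CPM in WT and at 415, 464 and 439.8 CPM in KO skin, without overlap (log2 fold change -0.49, SE 0.15, edgeR adjusted p = 0.0653). Under the label WT+ZnO NPs it was at 311, 350.1 and 317 CPM, below every KO library, and under the label KO+ZnO NPs at 365, 453 and 314 CPM. This transcript does not bear out a wild-type label for the WT+ZnO NPs libraries, and directions drawn from them rest on the label alone. It differed by -0.92 between WT+ZnO NPs and WT (SE 0.15, edgeR adjusted p = 0.000799). Between KO+ZnO NPs and WT+ZnO NPs it differed by 0.21 (SE 0.15, edgeR adjusted p = 0.401). Since Cre acts only in keratinocytes, a wrong label, treatment, sex and cell content cannot be told apart by *Cdc42* in whole skin. Y-linked transcripts were present at 192 to 242 CPM in 5 libraries, namely all 3 labelled WT+ZnO NPs, KO replicate 1 and KO+ZnO NPs replicate 1, and were at most 0.0504 CPM in the other 7. The study's methods call the KO mice female and name no other sex, so these transcripts go against that description. Between WT+ZnO NPs and WT, sex and treatment cannot be told apart by these 6 libraries alone. Another fit added the summed log2 level of Y-linked genes as a covariate, whose effect then comes from the KO groups, and its values are given where they change a call. Markers of growing hair follicles summed to between 6.07 and 13.7 CPM in WT and to between 978 and 5501 CPM in WT+ZnO NPs libraries. In KO skin that sum was 12195, 33.9 and 3619 CPM, and in KO+ZnO NPs skin it was 8997, 6763 and 268 CPM. Follicle marker sums were thus higher than WT in every library of the other groups. Because whole skin was sequenced, fewer cells of a type and less RNA per cell cannot be told apart in any result below. The labels do not say more of how the mice were related, so p-values measure the spread between these libraries.

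**Figure D1:**
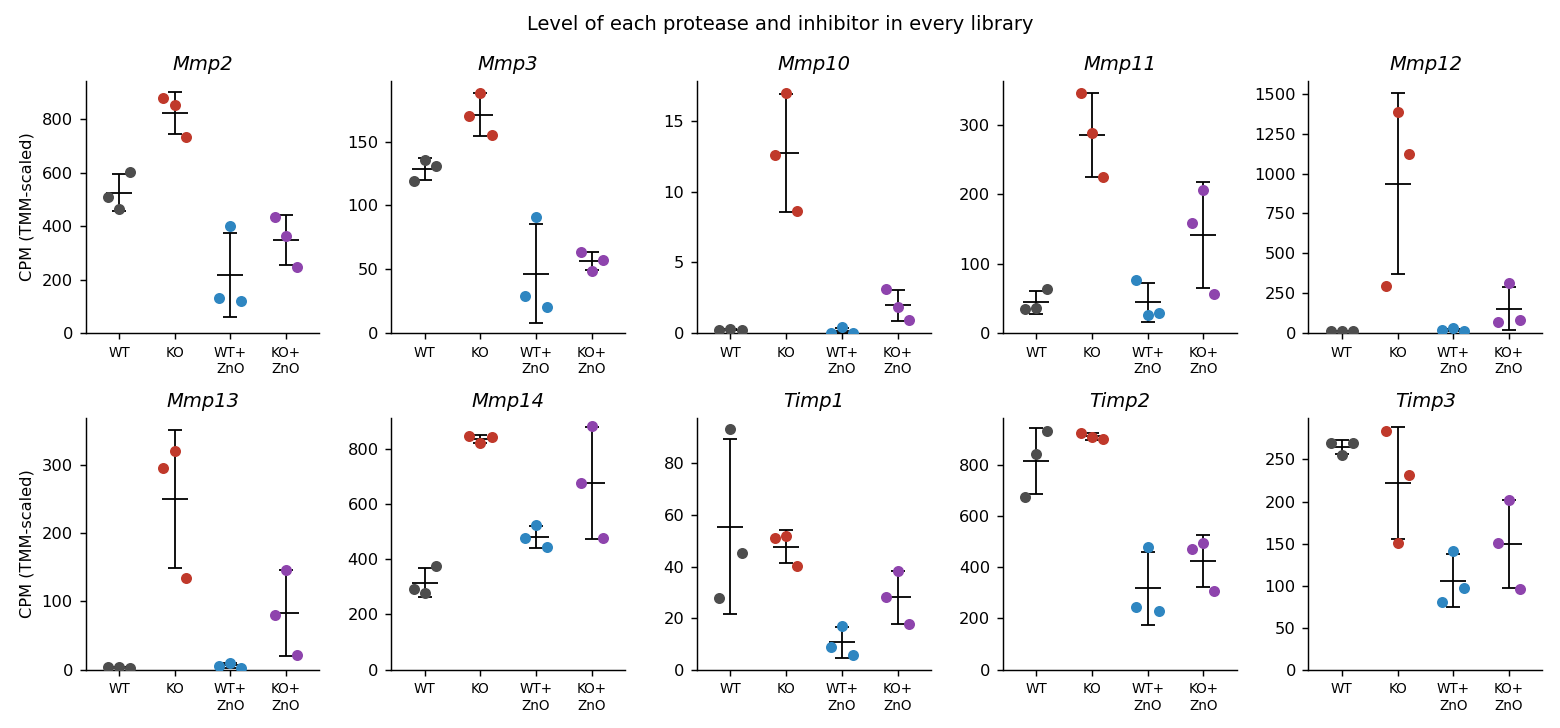
CPM of each of the 10 genes in every library of the 4 groups (points in replicate order, horizontal mark the mean, bars the SD of 3 libraries, vertical axes starting at 0). *Mmp10*, *Mmp12* and *Mmp13* were at most at 0.316, 14.9 and 3.99 CPM in WT skin and at least at 8.67, 297 and 134 CPM in KO libraries, while the *Timp* genes overlapped between WT and KO.

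The first comparison was of KO with WT skin, which asks what loss of *Cdc42* in keratinocytes does without particles. Of the 7 metalloproteinases 5 rose and none of the 3 inhibitors was called by edgeR, with 0 of them at an unadjusted p under 0.05 and 0 called by DESeq2. The largest differences were those of *Mmp13*, *Mmp12* and *Mmp10*. By the quasi-likelihood test of edgeR, adjusted over all genes after Benjamini and Hochberg, 5 of 10 genes were higher and 0 lower, beside 8.18% of all genes called (4.61% higher, 3.58% lower). The median log2 fold change of the 10 genes was 1.03, beside 0.010 for all genes.

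*Mmp13*, the main interstitial collagenase of rodents, was at 3.99, 3.47 and 2.80 CPM in WT and at 296, 321 and 134 CPM in KO skin. The lowest KO library was far above the highest WT library. The difference was 6.19 on the log2 scale (SE 0.76, edgeR adjusted p = 0.00151), a 72.9-fold rise. *Mmp12*, the elastase known from macrophages, was at 14.9, 13.4 and 10.9 CPM in WT and at 297, 1388 and 1126 CPM in KO skin. All KO libraries were higher, with replicate 1 well below the others. The log2 fold change was 6.16 (SE 0.78, edgeR adjusted p = 0.00166). Both genes stayed past the threshold under every one of 22 alternatives, with log2 fold changes between 5.78 and 6.58 for *Mmp12* and between 5.98 and 6.49 for *Mmp13*.

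*Mmp10*, a stromelysin that migrating keratinocytes make at wound edges, was barely detected in WT skin, with 5, 9 and 5 counts. That corresponds to 0.210, 0.316 and 0.212 CPM, against 12.6, 17.0 and 8.67 CPM in KO skin. The groups were widely separate, and the log2 fold change was 5.66 (SE 0.93, edgeR adjusted p = 0.00657). Even in KO skin it remained the lowest of the 10 genes per length, at 7.41 ± 2.42 CPM per kilobase of exon (SD, n = 3). The related stromelysin *Mmp3*, which is made mostly by fibroblasts, behaved otherwise. It was at 119, 136 and 131 CPM in WT and at 169.7, 188 and 155 CPM in KO skin. All 3 KO libraries were higher, but by 0.41 on the log2 scale (SE 0.43), and the edgeR adjusted p was 0.589. The stromelysins share 8.39% of the 50-base stretches of *Mmp3* and 8.37% of those of *Mmp10* with other transcripts, so a small part of their reads could be counted for neither gene.

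*Mmp11*, or stromelysin 3, is a stromal enzyme known from tissue remodelling and tumour stroma. It was at 34.2, 36.0 and 63.8 CPM in WT and at 346, 288 and 224 CPM in KO skin. The groups did not overlap, with a log2 fold change of 2.68 (SE 0.53, edgeR adjusted p = 0.0148). This call was lost without WT replicate 1 (2.52, adjusted p = 0.0576) and without WT replicate 2 (2.54, adjusted p = 0.0819). *Mmp14*, the membrane-type enzyme, was at 291, 279 and 375 CPM in WT and at 845, 820.0 and 844 CPM in KO skin. The KO libraries lay close together and all above WT. The log2 fold change was 1.41 (SE 0.22, edgeR adjusted p = 0.00448), and it was called under all 22 alternatives. *Mmp2*, the gelatinase that *Mmp14* activates, was at 510.2, 465 and 601 CPM in WT and at 881, 854 and 733 CPM in KO skin. It was higher in all 3 KO libraries by 0.65 on the log2 scale (SE 0.40), with an edgeR adjusted p of 0.346. *Mmp2* and *Mmp3* passed the test in a fit of the KO and WT libraries alone, with adjusted p of 0.0282 and 0.0406.

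The inhibitors gave no such separation. *Timp2*, the partner of *Mmp14*, was at 674, 841 and 930.5 CPM in WT and at 925, 907 and 899.9 CPM in KO skin, a log2 fold change of 0.16 (SE 0.29, edgeR adjusted p = 0.774). *Timp3*, which binds to the matrix and also inhibits ADAM proteases, was at 269.6, 256 and 270.0 CPM in WT and at 283, 151 and 232 CPM in KO skin. Its log2 fold change was -0.26 (SE 0.30, edgeR adjusted p = 0.639). *Timp1*, an inducible inhibitor of secreted metalloproteinases, varied most within WT, at 27.8, 93.2 and 45.4 CPM, and was at 51.2, 51.7 and 40.2 CPM in KO skin. All 3 inhibitors overlapped between the groups. The *Timp1* difference was -0.22 (SE 0.47, edgeR adjusted p = 0.812) and turned to 0.38 without WT replicate 2, the library with the highest level. Counted by separation alone, 7 of the 10 genes did not overlap and were higher in KO, beside 38.5% of all genes (18.6% higher, 19.9% lower). *Timp3* shares 1733 of its 8144 exon bases with *Syn3* on the opposite strand, and *Mmp11* and *Mmp12* share 155 and 157 exon bases with *Chchd10* and *Mmp1b* on the opposite strand. Whether the counting used strand is not given in the sources used here.

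**Figure D2:**
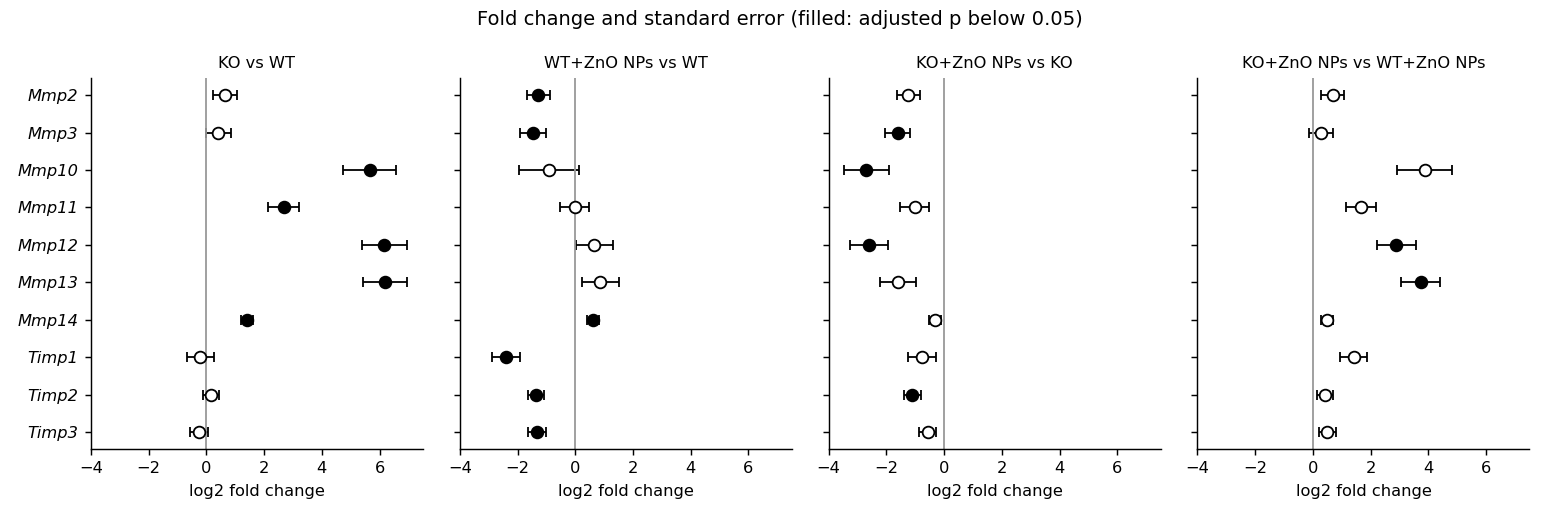
Log2 fold change (horizontal axis) with its standard error for the 10 genes in the 4 comparisons, from edgeR on all 12 libraries; filled points passed an adjusted p of 0.05. In KO against WT the filled points are 5 metalloproteinases, between 1.41 and 6.19, with the 3 inhibitors between -0.26 and 0.16.

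Cell type markers were read beside these differences. The summed level of 10 macrophage markers was 4445, 5927 and 4993 CPM in WT and 2480, 4358 and 3251 CPM in KO skin, lower in every KO library than in any WT library. *Mmp12* was higher in KO, and within that group it stood in the same replicate order as the macrophage sum. None of the 10 markers passed the edgeR test (4 at an unadjusted p under 0.05, 3 called by DESeq2) and all 10 had a negative log2 fold change. Neutrophil markers summed to 272, 320 and 252 CPM in WT and to 161, 752 and 149 CPM in KO, with 0 of 9 tested markers called by edgeR (3 at an unadjusted p under 0.05, 3 called by DESeq2) and *Ly6g* too low to test. Markers of wounded and stressed keratinocytes summed to 1574, 2227 and 1877 CPM in WT and to 5689, 7657 and 3900 CPM in KO skin. All 10 of these had a positive difference, of which only *Krt17* passed the edgeR test (2 at an unadjusted p under 0.05, 2 called by DESeq2), and not without WT replicate 2 (adjusted p = 0.0527). Fibroblast markers, a list that includes *Col1a1*, *Col1a2* and *Col3a1*, summed to 10613, 8378 and 15511 CPM in WT and to 27290, 24471 and 38882 CPM in KO. Of the 10 markers 7 had a positive difference, with a median of 0.63. Only *Pdgfrb* was called by edgeR (5 at an unadjusted p under 0.05, 4 called by DESeq2). That call was held in 5 of the 12 fits that left out 1 library. The part of the macrophage, neutrophil, keratinocyte and fibroblast markers in the metalloproteinase differences was not tested. All 10 follicle markers passed the test as higher in KO. Each of these calls was lost without WT replicate 2, and they were held in 1 (*Shh*) to 11 (*Krt73*) of the 12 fits that left out 1 library. KO replicate 1, with the highest follicle sum of its group, had the highest *Mmp11*, and KO replicate 2, with the lowest sum (33.9 CPM), had the highest *Mmp10*, *Mmp12* and *Mmp13* and the lowest *Mmp14*. The part of follicle content was not tested. Endothelial and adipocyte markers had no call by edgeR (4 and 2 of 10 at an unadjusted p under 0.05, 1 each called by DESeq2). Their sums were below WT in every KO library, at 517 to 635 against 856 to 897 CPM and at 5410 to 8685 against 10897 to 16600 CPM. Skeletal muscle markers were also below WT, at 1814 to 6149 against 6435 to 7712 CPM, with *Myh4* called lower (held in 3 of 12 fits that left out 1 library). Basal and suprabasal keratinocyte markers were above WT, at 15317 to 27958 against 9125 to 13565 CPM, with *Trp63* called higher (held in 8 of 12). Mast cell sums, at 566 to 1031 against 229 to 417 CPM, and melanocyte sums, at 93.0 to 248 against 62.2 to 82.2 CPM, were above WT as well, with 2 and 3 of 10 markers called higher. The part of these lists was not tested. Without KO replicate 1 and KO+ZnO NPs replicate 1, which held Y-linked transcripts, *Mmp10*, *Mmp12*, *Mmp13* and *Mmp14* were still called, and *Mmp11* was at 2.52 (adjusted p = 0.0527).

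**Figure D3:**
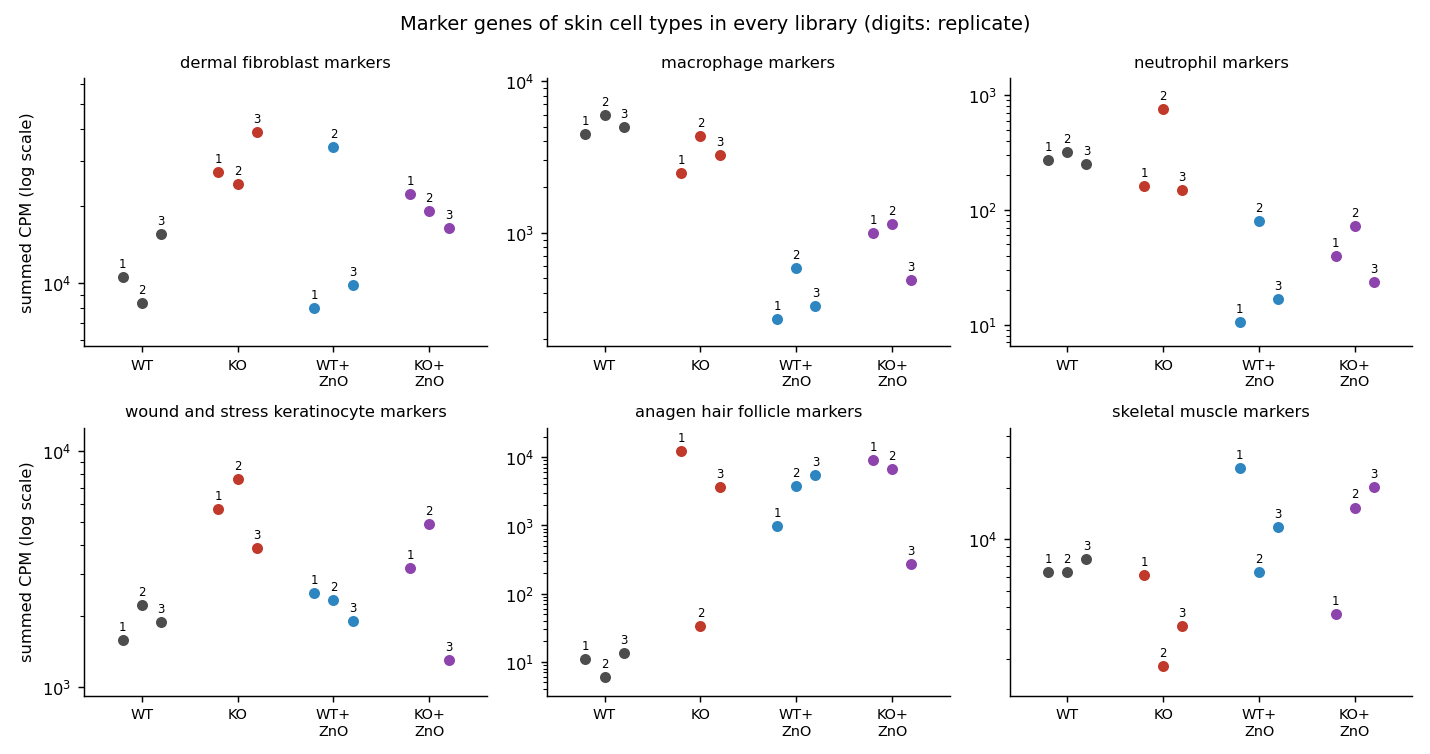
Summed CPM of 10 marker genes of each of 6 skin cell types or structures in every library (logarithmic vertical axes; digits give the replicate). Macrophage markers are below WT in every other library, and follicle markers are near 10 CPM in WT and at 33.9 CPM in KO replicate 2.

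The second comparison was of libraries under the label WT+ZnO NPs with those of WT skin, both labelled as having an intact barrier. Particles and sex cannot be told apart in it. Here the inhibitors fell, together with *Mmp2* and *Mmp3*, while *Mmp14* rose and *Mmp12* and *Mmp13* were not called. The edgeR test called 6 of the 10 genes, 1 higher and 5 lower, beside 43.0% of all genes (20.8% higher, 22.1% lower). With so large a share of all genes called, a count of 6 in 10 is near what the whole table shows. By separation, 2 of the 10 were above and 5 below every WT library, beside 59.4% of all genes (30.1% above, 29.3% below). The median log2 fold change of the 10 genes was -1.09, beside 0.056 for all genes.

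*Timp1* was at 8.84, 17.1 and 5.78 CPM in WT+ZnO NPs libraries, all below the lowest WT library at 27.8 CPM. It fell by 2.39 on the log2 scale (SE 0.49, edgeR adjusted p = 0.00330), and by 1.80 without WT replicate 2 (adjusted p = 0.0130). *Timp2* was at 243, 481 and 229 CPM, again below every WT library, and fell by 1.36 (SE 0.29, edgeR adjusted p = 0.00407). *Timp3* was at 80.2, 141 and 96.6 CPM and fell by 1.32 (SE 0.30, edgeR adjusted p = 0.00576). The 3 inhibitors were called in all 21 alternatives of this comparison.

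*Mmp2* was at 133, 399 and 119 CPM in the WT+ZnO NPs libraries and *Mmp3* at 28.8, 91.0 and 20.1 CPM. Both were below every WT library, and in both replicate 2 stood far above the others. *Mmp2* fell by 1.27 (SE 0.41, edgeR adjusted p = 0.0279), and by 2.06 without WT+ZnO NPs replicate 2. Its call was lost without WT replicate 1, WT replicate 3, WT+ZnO NPs replicate 1 or WT+ZnO NPs replicate 3, with adjusted p of 0.0560, 0.0766, 0.0898 and 0.0941. It was also lost in a fit of these groups alone (adjusted p = 0.0548) and with the Y-linked covariate (-1.60, adjusted p = 0.0784). *Mmp3* fell by 1.46 (SE 0.43, edgeR adjusted p = 0.0199), and by 2.40 without WT+ZnO NPs replicate 2. It was not called without WT replicate 2 (adjusted p = 0.0519) or WT+ZnO NPs replicate 1 (adjusted p = 0.0686), nor in the fit of these groups alone (adjusted p = 0.0530) or with the Y-linked covariate (-1.58, adjusted p = 0.103). Fibroblast markers showed the same library apart, summing to 7997, 34093 and 9830 CPM, and 6 of 10 of them fell while 1 rose.

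*Mmp14* was at 475, 525 and 445 CPM, above every WT library, a log2 fold change of 0.61 (SE 0.21, edgeR adjusted p = 0.0381). That call was the least stable of the 6. It was held in 5 of the 12 fits that left out 1 library and lost without any of WT replicates 1 and 2, WT+ZnO NPs replicates 1, 2 and 3, and KO replicates 1 and 3, where adjusted p ran from 0.0518 to 0.131. It was lost as well without a filter on low counts (adjusted p = 0.0728), without both KO libraries that hold Y-linked transcripts (0.0636) and with the Y-linked covariate (0.216). *Mmp12* was at 17.4, 29.5 and 15.4 CPM, above each WT library, without a call (0.67, SE 0.63, edgeR adjusted p = 0.416). With the Y-linked covariate it was called higher, at 2.45 (adjusted p = 0.0264). *Mmp13* was at 5.40, 10.5 and 2.93 CPM, overlapping WT (0.87, SE 0.65, edgeR adjusted p = 0.297). *Mmp11*, at 76.5, 26.7 and 29.1 CPM, also overlapped, and its log2 fold change of -0.02 changed sign when TMM factors were left out (0.08). *Mmp10* gave 0 counts in replicates 1 and 3, which allows up to 0.120 and 0.119 CPM, and 9 counts or 0.411 CPM in replicate 2. Its log2 fold change of -0.91 had an SE of 1.04 (edgeR adjusted p = 0.498). Without replicate 2 it was called (adjusted p = 0.00851), and against the floor of 3 counts per library WT was then at least 2.06-fold higher.

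Neutrophil markers summed to 10.5, 80.1 and 16.9 CPM in these libraries, all below WT (252 to 320 CPM), and of 9 tested 1 rose and 3 fell (list median -2.39). Macrophage markers summed to 272, 582 and 330 CPM, and all 10 fell, with *Adgre1* at 6.08 to 13.9 CPM against 252 to 359 CPM in WT. Follicle markers rose, 10 of 10 of them. Endothelial markers summed to 213, 377 and 261 CPM, against 856 to 897 CPM in WT, and 9 of 10 fell (list median -1.61). Adipocyte markers summed to 2935, 4820.2 and 3066 CPM, against 10897 to 16600 CPM in WT, and 7 of 10 fell (-2.52). Among melanocyte markers 9 of 10 rose and 1 fell (5.59), among wound keratinocyte markers 1 rose and 6 fell (-3.07), among mast cell markers 1 rose and 5 fell (-2.16), and among other keratinocyte markers 2 rose and 4 fell (-1.08). The sum of the wound markers, at 1904 to 2506 CPM, overlapped that of WT. Skeletal muscle markers summed to 25966, 6434 and 11798 CPM, and to between 6435 and 7712 CPM in WT, with 0 of 10 called by edgeR (1 at an unadjusted p under 0.05, 1 called by DESeq2). The part of these markers in the falls was not tested. With the Y-linked covariate 4 of the 10 genes were called, *Mmp12* higher and the 3 inhibitors lower (-2.48 for *Timp1*, which is on the X chromosome, -1.50 for *Timp2* and -1.63 for *Timp3*), with 3941 of all genes called.

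The third comparison was of KO+ZnO NPs with KO skin, the effect of particles where the barrier is impaired. All 10 genes had a negative difference, and 4 were called lower by edgeR, *Mmp3*, *Mmp10*, *Mmp12* and *Timp2*, beside 14.7% of all genes called (6.57% higher, 8.09% lower). In 6 of the 10 every KO+ZnO NPs library lay below every KO library, beside 34.7% of all genes that were separate (17.0% higher, 17.7% lower). The median log2 fold change was -1.17, beside 0.007 for all genes. This comparison shares the KO libraries with the first.

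*Mmp12* was at 67.6, 312 and 81.3 CPM in KO+ZnO NPs skin. Replicate 2 was just above the lowest KO library (297 CPM), so the groups overlapped, while the others were well below. The gene fell by 2.61 on the log2 scale (SE 0.66, edgeR adjusted p = 0.0278), a 6.10-fold decrease. It fell by 3.63 without KO+ZnO NPs replicate 2, and was not called without KO replicates 2 or 3 or KO+ZnO NPs replicates 1 or 3, where adjusted p lay between 0.0531 and 0.0977, or in a fit of these groups alone (adjusted p = 0.102). *Mmp10* was at 3.14, 1.81 and 0.915 CPM, all below KO, and fell by 2.70 (SE 0.78, edgeR adjusted p = 0.0425). *Mmp3* was at 63.3, 48.6 and 57.2 CPM, all below KO, and fell by 1.60 (SE 0.44, edgeR adjusted p = 0.0355). These calls rested on most of the libraries. That of *Mmp10* was held without each of the 3 WT+ZnO NPs libraries or KO+ZnO NPs replicate 1 only, and that of *Mmp3* without each of the WT+ZnO NPs libraries only. In the other fits the adjusted p ran up to 0.125 for *Mmp10* and 0.107 for *Mmp3*, with differences of -2.34 to -2.92 and -1.49 to -1.69. Without both KO libraries that hold Y-linked transcripts it was 0.0583 and 0.0817.

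*Timp2* was the inhibitor called, at 473, 494 and 307 CPM, all below KO. It fell by 1.10 (SE 0.29, edgeR adjusted p = 0.0320), and was not called without any 1 of the 3 KO libraries or KO+ZnO NPs replicates 2 or 3, with adjusted p up to 0.0967, nor without both KO libraries that hold Y-linked transcripts (0.0728) or in a fit of these groups alone (0.0513). *Timp1*, at 28.1, 38.1 and 17.9 CPM, was below every KO library without a call (-0.77, SE 0.47, edgeR adjusted p = 0.283). *Timp3*, at 151, 201 and 96.0 CPM, overlapped KO (-0.57, SE 0.30, edgeR adjusted p = 0.212). *Mmp2*, at 434, 364 and 247 CPM, lay below every KO library, with a difference of -1.24 (SE 0.41, edgeR adjusted p = 0.0640), and was called without WT+ZnO NPs replicate 2 (adjusted p = 0.00870), without that whole group (0.0144) and by DESeq2 (0.0174). *Mmp11*, at 159, 206 and 56.7 CPM, was also below KO in every library and not called (-1.02, SE 0.50, edgeR adjusted p = 0.184).

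*Mmp13* was at 80.1, 147 and 22.1 CPM, with replicate 2 above the lowest KO library. The difference of -1.59 (SE 0.61) had an edgeR adjusted p of 0.0995. It was called by DESeq2 (adjusted p = 0.0353). *Mmp14* was at 676, 881 and 476 CPM, overlapped KO, and differed by -0.30 (SE 0.21, edgeR adjusted p = 0.347). Of the KO+ZnO NPs libraries, replicate 2 was highest for *Mmp11*, *Mmp12*, *Mmp13* and *Mmp14*. Replicate 2 was also highest for wound keratinocyte markers, which summed to 3203, 4929 and 1301 CPM in this group. Across the 6 KO and KO+ZnO NPs libraries, *Mmp13* and that sum stood in the same order within each group, a description made after the values were seen. Macrophage markers summed to 992, 1134 and 488 CPM, and all 10 fell against KO, 7 of them not without KO replicate 2. Fibroblast markers summed to 22357, 19104 and 16404 CPM, below every KO library, and all 10 had a negative difference (median -0.83), with *Pdgfra* and *Pdgfrb* called lower (held in 2 and 11 of 12 fits that left out 1 library). Neutrophil markers summed to 39.7, 71.8 and 23.5 CPM, also below every KO library, and all 9 tested were negative (median -2.85), with *Csf3r* and *Cxcr2* called lower (held in 8 and 2 of 12). Of the wound keratinocyte and mast cell markers 1 each was called lower by edgeR, with medians of -1.83 (1 of 10 positive) and -1.15 (0 of 10 positive). Of the melanocyte markers 1 was called higher and 1 lower by edgeR (8 at an unadjusted p under 0.05, 8 called by DESeq2). Among these markers 9 of 10 were positive, with a median of 1.82. Their sum was 339 to 504 CPM, against 93.0 to 248 CPM in KO skin. Endothelial, adipocyte, follicle and basal keratinocyte markers had no call by edgeR (2, 0, 1 and 2 at an unadjusted p under 0.05, and 2, 0, 0 and 0 called by DESeq2). Skeletal muscle markers summed to 3680, 15317 and 20297 CPM, 3 of them being called higher (*Mylpf*, *Actn3* and *Myl1*, held in 4, 2 and 4 of 12 fits that left out 1 library). The part of these markers was not tested.

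Between the groups given particles, KO+ZnO NPs and WT+ZnO NPs, all 10 genes had a positive log2 fold change, with a median of 1.04 beside 0.040 for all genes. Only *Mmp12* and *Mmp13* were called, both higher, beside 3.28% of all genes called (2.13% higher, 1.16% lower). Over all genes the split was 400 higher and 218 lower, or 258 and 516 without TMM factors. The groups were separate, with KO+ZnO NPs higher, for 4 of the 10 genes, beside 23.7% of all genes (13.0% higher, 10.8% lower). Both had also risen in KO against WT.

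*Mmp13* was 3.73 higher on the log2 scale (SE 0.68, edgeR adjusted p = 0.0307), or 13.2-fold, and *Mmp12* was 2.89 higher (SE 0.67, edgeR adjusted p = 0.0474). In both genes the lowest KO+ZnO NPs library lay above the highest WT+ZnO NPs library, at 22.1 against 10.5 CPM and 67.6 against 29.5 CPM. *Mmp10* and *Timp1* were also separate between the groups but not called, with differences of 3.87 (SE 0.95, edgeR adjusted p = 0.0521) and 1.41 (SE 0.48, edgeR adjusted p = 0.108). The differences of the other 6 genes lay between 0.28 for *Mmp3* and 1.67 for *Mmp11*, with overlap.

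Marker lists were read between the groups given particles as well. The median log2 fold change was 1.12 for macrophage, 1.29 for endothelial and 1.26 for basal and suprabasal keratinocyte markers, all 10 being positive in each of these lists. It was 1.82 for wound keratinocyte, 2.32 for mast cell and 1.46 for adipocyte markers, with 9 of 10 positive, 0.77 for fibroblast markers with 8 of 10 and 0.59 for neutrophil markers with 6 of 9. The test called 3 endothelial, 2 basal and suprabasal, 1 wound keratinocyte and 1 mast cell marker higher. None of the macrophage, adipocyte, fibroblast and neutrophil markers was called by edgeR (9, 4, 5 and 2 at an unadjusted p under 0.05, and 5, 2, 3 and 1 called by DESeq2). Melanocyte, follicle and muscle markers had medians of -1.42, -0.40 and -0.21, again with no call by edgeR (6, 2 and 0 at an unadjusted p under 0.05, and 3, 1 and 0 called by DESeq2). The part of these markers in the differences was not tested.

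The call of *Mmp12* was held in 2 of the 12 fits with 1 library left out, those without KO replicate 1 or KO+ZnO NPs replicate 3. It was lost without any of the other 10, with adjusted p between 0.0587 and 0.178, and its value was 1.83 without KO+ZnO NPs replicate 2. *Mmp13* was held in 5 of 12 and lost without any of the 3 WT libraries, WT+ZnO NPs replicates 1 or 3, or KO+ZnO NPs replicates 1 or 2, with adjusted p from 0.0510 to 0.125. With the Y-linked covariate neither was called, *Mmp12* being at 1.57 (adjusted p = 0.178) and *Mmp13* at 3.85 (adjusted p = 0.102). Neither was called without both KO libraries that hold Y-linked transcripts (adjusted p = 0.0558 and 0.0798), and RLE in place of TMM factors ended the call of *Mmp12* (adjusted p = 0.0502). The value of *Mmp13* was 4.32 without WT+ZnO NPs replicate 2 and 3.02 without KO+ZnO NPs replicate 2. Other genes were gained. Without WT+ZnO NPs replicate 2, *Mmp2* (1.47, adjusted p = 0.0297), *Mmp3* (1.21, adjusted p = 0.0282) and *Mmp10* (adjusted p = 0.0282) were called, *Mmp10* then being at least 16.4-fold above the floor of 3 counts per library. Without KO+ZnO NPs replicate 3, *Mmp10* (4.20, adjusted p = 0.0298), *Mmp11* (2.04, adjusted p = 0.0272) and *Mmp14* (0.68, adjusted p = 0.0441) were called. In a fit of these groups alone no gene of the table passed edgeR's adjusted test, with 3067 at an unadjusted p under 0.05. DESeq2 called 2302, among them *Mmp10*, *Mmp11*, *Mmp12*, *Mmp13* and *Timp1*.

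Whether the difference with particles was unequal under the KO and WT labels was tested as an interaction of genotype and ZnO NPs. Only *Mmp12* was called among the 10 genes, beside 8.68% of all genes (5.08% positive, 3.59% negative). The split over all genes was 957 positive and 676 negative, or 660 and 1001 without TMM factors. The *Mmp12* interaction was -3.28 on the log2 scale (SE 0.91, edgeR adjusted p = 0.0496). The gene fell by 2.61 in KO skin and differed by 0.67 in the other direction for WT+ZnO NPs against WT, a label that *Cdc42* does not bear out. This call was held in 2 of the 12 fits that left out 1 library, those without KO replicate 1 or KO+ZnO NPs replicate 2 (-4.34), and was lost in the other 10 and with RLE factors (adjusted p = 0.0507). For *Mmp13* the term was -2.46 (SE 0.89, edgeR adjusted p = 0.105) and for *Mmp14* -0.92 (SE 0.30, edgeR adjusted p = 0.0797). *Mmp13* was called by DESeq2 (adjusted p = 0.0259). *Mmp14* was called without KO+ZnO NPs replicate 2 (-1.17, adjusted p = 0.0257), without TMM factors (-1.08, adjusted p = 0.0335) and by DESeq2 (adjusted p = 0.0272). The *Timp1* term was 1.62 (SE 0.67, edgeR adjusted p = 0.146), from differences of -2.39 and -0.77 under the WT and KO labels, and the remaining genes had adjusted p of 0.276 or more.

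Between genes, levels were compared as CPM per kilobase of exon. In WT skin *Timp2* (209 ± 33.4, SD, n = 3) and *Mmp2* (156 ± 20.6) led, followed by *Mmp3* (71.3 ± 4.88), *Timp1* (62.5 ± 38.1) and *Mmp14* (52.8 ± 8.82). *Timp1* differed from *Mmp3* and from *Mmp14* by less than its own SD, while the WT libraries of *Mmp3* (65.9 to 75.4) lay above those of *Mmp14* (46.8 to 62.9). *Timp3* (32.6 ± 0.987) and *Mmp11* (16.1 ± 5.98) came next, and *Mmp12*, *Mmp13* and *Mmp10* were below 2 CPM per kilobase. In KO skin *Mmp2* (244 ± 23.3) and *Timp2* (234 ± 3.37) were within their spread of each other. *Mmp14* (140 ± 2.34), *Mmp12* (129 ± 78.7), *Mmp11* (103 ± 21.9), *Mmp3* (95.0 ± 9.17) and *Mmp13* (93.6 ± 37.9) followed, a run in which no neighbours were apart by more than the SD of the more variable one. *Mmp12* was thus within its own SD of *Mmp3* and *Mmp14* in KO skin. *Mmp13* was within its own SD of *Mmp3*, but its KO libraries (50.1 to 120) lay below those of *Mmp14* (138 to 142).

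Summed over the 7 metalloproteinases, the level per kilobase was 299 ± 35.0 in WT, 813 ± 96.1 in KO, 192 ± 73.3 in WT+ZnO NPs and 352 ± 117 in KO+ZnO NPs (SD, n = 3). For the 3 inhibitors it was 304 ± 59.6, 315 ± 13.4, 106 ± 46.4 and 159 ± 43.3. The ratio of inhibitors to metalloproteinases was 0.842, 1.27 and 0.951 in WT libraries and 0.423, 0.336 and 0.414 in KO libraries. It was 0.492, 0.582 and 0.572 in WT+ZnO NPs and 0.456, 0.426 and 0.491 in KO+ZnO NPs. Every WT library was above every library of the other groups. In KO the numerator was like that of WT and the denominator larger, whereas in WT+ZnO NPs both sums were smaller. *Mmp2* made up 52.0% ± 1.94 of the metalloproteinase sum in WT and 30.2% ± 3.03 in KO, where *Mmp12* gave 15.7% ± 9.07. In WT+ZnO NPs libraries *Mmp14* had the largest mean share, at 45.0% ± 11.9 beside 31.0% ± 10.6 for *Mmp2*, though *Mmp2* led in replicate 2 (43.1% against 32.0%). In KO+ZnO NPs they gave 32.7% ± 2.64 and 30.2% ± 5.70. The ratio is a description of transcripts and was not tested, and the authors' counts do not say which proteins were made.

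**Figure D4:**
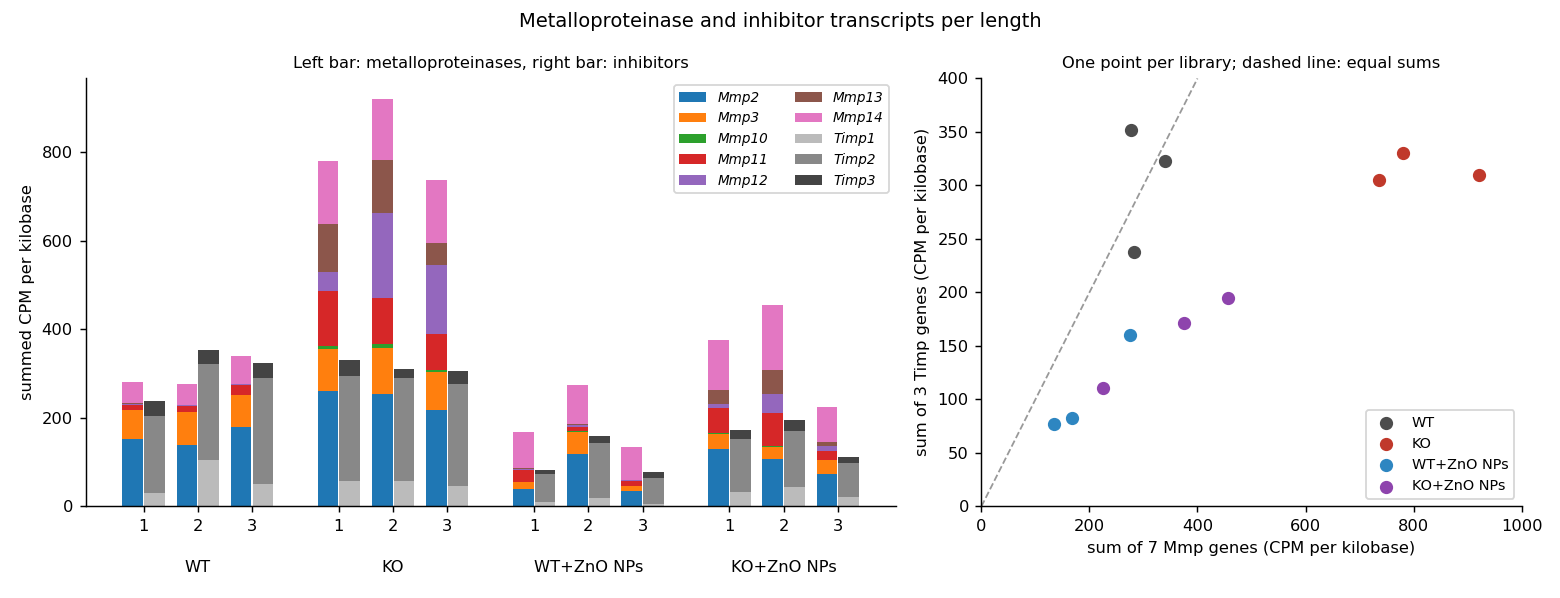
Left, CPM per kilobase of the 7 metalloproteinases (left bar of each pair, stacked by gene) and the 3 inhibitors (right bar) in every library, digits giving the replicate; right, the sums plotted against each other, with equal sums on the dashed line. KO libraries lie far to the right at an inhibitor sum like that of WT, and both particle groups lie at lower inhibitor sums.

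Over the 12 libraries the 10 genes fell into patterns, described here by Pearson's r of log2 CPM without a test, since the points share groups, depth and marker content. *Mmp13* followed *Mmp12* (r = 0.939), *Mmp10* (0.937), *Mmp14* (0.917) and *Mmp11* (0.913). *Mmp2*, *Mmp3* and *Timp2* formed a second set, with r between 0.951 and 0.955, and *Timp1* followed *Timp2* (0.905). Among tested genes whose mean reached 10 CPM, those most like *Mmp10* were *Mmp9* (0.969), *Pdgfb* (0.961) and *Ephb2* (0.954). Those most like *Mmp12* were *Runx3* (0.957), *Col27a1* (0.948) and *Mmp13* (0.939). *Mmp13* followed *Tnfrsf11b* (0.950), the decoy receptor osteoprotegerin, and followed *Tnn* (0.944). *Mmp14* was nearest to *Kif26b* (0.980), *Bmp1* (0.966), the procollagen C-proteinase, and *Dkk3* (0.961), and *Mmp11* to *Dsg3* (0.961), *Crabp1* (0.947) and *Bpgm* (0.942). *Mmp2* was nearest to the fibroblast and pericyte receptor *Pdgfrb* (0.970), *Adamts2* (0.968) and *Masp1* (0.968). *Mmp3* was nearest to *Eif2ak3* (0.972), *C1ra* (0.965) and *Plek* (0.963). *Timp2* was nearest to *C1s1* (0.987), *C1ra* (0.986) and *Colec12* (0.982). *Timp1* was nearest to *Ankib1* (0.970), *Il4ra* (0.967) and *Fndc3b* (0.959), and *Timp3* to *Ube2j1* (0.956), *Parva* (0.949) and *Cdc42bpb* (0.945).

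The rest of the metalloproteinase family was read from a list of 17 genes, of which 11 could be tested. In KO against WT 2 rose and 1 fell, in WT+ZnO NPs against WT 0 rose and 5 fell, in KO+ZnO NPs against KO 0 rose and 4 fell, and between the groups given particles 1 rose. The medians of the list were 0.69, -1.47, -1.02 and 0.67. *Mmp9*, the second gelatinase, lay between 29.9 and 59.9 CPM in WT and between 415 and 899 CPM in KO skin, without overlap (3.93, SE 0.70, edgeR adjusted p = 0.00995). It was also higher in KO+ZnO NPs than in WT+ZnO NPs libraries (4.26, SE 0.72, edgeR adjusted p = 0.0290), a call lost without WT+ZnO NPs replicate 3 or KO+ZnO NPs replicate 1. *Mmp16*, another membrane-type enzyme, rose from 1.72 ± 0.77 to 15.9 ± 3.2 CPM in KO skin (3.22, edgeR adjusted p = 0.00337). *Mmp28*, or epilysin, a metalloproteinase of keratinocytes, went the other way. It fell by 1.43 in KO (edgeR adjusted p = 0.00390) and by 2.37 in WT+ZnO NPs libraries (edgeR adjusted p = 4.01e-05), and its interaction was 2.16 (edgeR adjusted p = 0.00483). *Mmp19* fell by 2.83 in WT+ZnO NPs (edgeR adjusted p = 0.00139) and by 1.72 in KO+ZnO NPs skin (edgeR adjusted p = 0.0385). The latter call was held in 5 of the 12 fits that left out 1 library, and the others of this list named for KO and WT+ZnO NPs libraries in all 12.

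Of 22 genes that activate metalloproteinases or otherwise restrain them, 19 were tested. In KO against WT 1 rose, *Serpine2*, and 1 fell, *Cd151*. In WT+ZnO NPs against WT 1 rose and 10 fell, in KO+ZnO NPs against KO 5 fell, and between the groups given particles 1 rose, *Thbs2*. *Plau*, the urokinase that makes plasmin, an activator of metalloproteinases, fell by 2.12 (edgeR adjusted p = 0.000173) and by 1.14 (edgeR adjusted p = 0.0189) for WT+ZnO NPs against WT and KO+ZnO NPs against KO. The first of these comparisons rests on a label that *Cdc42* does not bear out. *Lrp1*, a receptor that clears proteases and their inhibitors, fell by 1.78 (edgeR adjusted p = 0.00117) and by 1.24 (edgeR adjusted p = 0.0243). *Thbs2*, a matricellular protein that helps clear *Mmp2*, fell by 1.92 (edgeR adjusted p = 0.000527) and by 1.29 (edgeR adjusted p = 0.0175). The tetraspanin *Cd151* fell by 0.65 in KO skin (edgeR adjusted p = 0.0147). That call was lost without WT replicate 2, KO replicate 2 or KO replicate 3, and that of *Serpine2* in KO skin without WT replicate 2. In KO+ZnO NPs skin the calls of *Plau*, *Lrp1* and *Thbs2* were held in 10, 8 and 9 of 12 such fits, all 3 being lost without KO replicate 2. The call of *Thbs2* between the groups given particles was held in 2.

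All 21 ADAM and ADAMTS proteases of the list were tested, and 4 rose in KO skin (*Adam12*, *Adamts4*, *Adamts16* and *Adamts18*) with 0 falling. In WT+ZnO NPs against WT 5 rose, among them *Adamts16* by 5.07 and *Adamts18* by 4.34 (edgeR adjusted p = 0.0219 and 0.00344), and 7 fell. In KO+ZnO NPs against KO 0 rose and 4 fell. *Adam17*, the sheddase that *Timp3* inhibits, fell by 1.01 (edgeR adjusted p = 0.000666) and by 0.74 (edgeR adjusted p = 0.0154), and *Adam9* by 1.95 (edgeR adjusted p = 7.75e-05) and 0.77 (edgeR adjusted p = 0.0316). In KO+ZnO NPs skin the former was lost without KO replicate 2, and the latter without any 1 of the KO libraries or KO+ZnO NPs replicate 3. Of the genes risen in KO skin, *Adam12*, *Adamts4* and *Adamts18* were called there in 6, 7 and 8 of 12 fits that left out 1 library. *Adamts16* had 0 counts in every WT library, which allows up to 0.127 CPM, and was at 3.43 ± 0.33 CPM in KO skin, at least 28.7-fold above the floor of 3 counts per library. *Adamts20* rose by 3.85 in WT+ZnO NPs libraries (edgeR adjusted p = 0.000502). None of 8 cathepsins and their inhibitors was called by edgeR in KO against WT (2 at an unadjusted p under 0.05, 1 called by DESeq2), while 7 fell in WT+ZnO NPs and 4 in KO+ZnO NPs skin. The lysosomal *Ctsb*, *Ctsz* and *Ctss* fell in both, *Ctss*, which is known from macrophages and other antigen-presenting cells, by 3.91 (edgeR adjusted p = 0.000369) and 2.19 (edgeR adjusted p = 0.0217). The latter was lost without KO replicates 2 or 3 or KO+ZnO NPs replicate 3, and that of *Ctsz* without KO replicate 2. The cathepsin inhibitor *Cst3* fell by 1.09 in WT+ZnO NPs libraries (edgeR adjusted p = 0.000982) and was not called in KO+ZnO NPs skin.

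Matrix proteins that these enzymes cut were a list of 18 genes, of which 7 rose and 0 fell in KO against WT, with a median of 1.45. *Col7a1*, the anchoring fibril collagen beneath the epidermis, was between 18.0 and 39.7 CPM in WT and between 512 and 610 CPM in KO skin (4.25, SE 0.37, edgeR adjusted p = 0.000406). The laminin chain *Lama3* rose by 2.27 (edgeR adjusted p = 0.00203), and *Lamb3*, *Col5a1*, *Acan* and *Spp1* were also called. Those of *Lamb3*, *Col5a1*, *Acan* and *Spp1* were held in 7, 7, 8 and 4 of 12 fits that left out 1 library, and those of *Col7a1* and *Lama3* in all 12. In WT+ZnO NPs libraries 4 rose and 3 fell, among the latter the small proteoglycan *Dcn* by 2.02 (edgeR adjusted p = 0.00286). In KO+ZnO NPs against KO skin 0 rose and 2 fell, and against WT+ZnO NPs libraries 2 were higher and 0 lower, *Col7a1* by 2.01 (edgeR adjusted p = 0.0290, lost without WT+ZnO NPs replicate 3 or KO+ZnO NPs replicate 1).

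AP-1 subunits and inducers of metalloproteinase transcription were a list of 15 genes, read beside the genes with AP-1 letters upstream. None of the 15 was called by edgeR in KO against WT (2 at an unadjusted p under 0.05, 0 called by DESeq2), where *Mmp10*, *Mmp12* and *Mmp13* rose. *Fos* lay between 38.2 and 95.1 CPM in WT and between 40.6 and 280.2 CPM in KO skin, with overlap. In the WT+ZnO NPs libraries 6 of the 15 rose and 3 fell. *Fos* was between 480.4 and 2051 CPM there, all above WT (4.27, SE 0.94, edgeR adjusted p = 0.00454), and *Jun* was between 204 and 1200 CPM (2.73, SE 0.57, edgeR adjusted p = 0.00349). In the same libraries *Mmp3* fell, and *Mmp10*, *Mmp12* and *Mmp13* were not called. *Tgfb1* and *Ets1* each fell by 1.15 (edgeR adjusted p = 0.00200 and 0.00263). In KO+ZnO NPs skin 0 rose and 1 fell against KO, and 0 rose and 2 fell against WT+ZnO NPs, *Fos* by 4.33 (edgeR adjusted p = 0.0406), a call held in 4 of the 12 fits that left out 1 library. The part of AP-1 in the metalloproteinase differences was not tested.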

How the data were processed

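Skin RNA of 12 mice, 3 per group, was sequenced. Per the paper, TRIzol extracts were enriched for poly-A RNA on poly-T beads, prepared with a NEBNext Ultra kit and read paired-end on an Illumina HiSeq. The authors aligned reads with STAR and counted them with HTSeq; the submitters' processing notes name HISAT2 2.0.5 and mm10 and the labels a TruSeq kit, so aligner and kit are uncertain. The annotation release and strand setting are not given in the sources used here. The authors deposited whole-number counts per gene without normalization; their FPKM values were not used. By default HTSeq drops reads that overlap more than one gene.

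Groups were taken from the labels. The members, gene lists and tests were chosen with earlier results of these data known. Of 52636 identifiers, 52489 were named from GENCODE release 21 on GRCm38, the rest being left without a name, and 0 rows were blank or summaries of unassigned reads. Counts were tested in R 4.3.3 with the quasi-likelihood test of edgeR 4.0.16: TMM factors, its filter on low counts, all 12 libraries in 1 fit with a coefficient per group, and Benjamini-Hochberg adjustment over 18822 genes at 0.05. Standard errors are approximate, being the log2 fold change divided by the root of F. The test was tested on simulated data. Same-group libraries were all separated by more than counting error (chi-square per degree of freedom 38.2 to 163). Totals of 21076320 to 28867802 counts set the precision, and limits from a count of 0 cover counting error only. Exon length is the union of a gene's exons. Promoters, 250 bases before each start, are from RefSeq (GRCm38.p6). All 10 members were described in every comparison, with Cdc42, for each other functional list up to 4 called genes with the smallest p, and for each member the 3 genes with the highest r (prior count 2); 1 gene that the rule names is not reported here. *Serpine2*, the called ADAM and ADAMTS genes, the other matrix genes and the single called markers were named after their values were seen. Other settings tried were DESeq2 1.42.0, RLE factors, no scaling beyond library size, fits of only the groups compared, no filter or at least 10 counts in every library, a replicate block, Y-linked transcripts as a covariate, and fits without single libraries, without both KO libraries with Y-linked transcripts, or without the WT+ZnO NPs group.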

Additional observations from a re-analysis of the deposited data

Results flagged for a closer look

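The difference of *Mmp12* with ZnO NPs was unequal under the KO and WT labels. The libraries labelled WT+ZnO NPs had less *Cdc42* than any KO library, so the term rests on their label. The interaction term was -3.28 on the log2 scale (SE 0.91, edgeR adjusted p = 0.0496). *Mmp12* was lower in KO+ZnO NPs than in KO skin in 2 of 3 libraries against the lowest KO library, and higher in WT+ZnO NPs than in WT libraries in 3 of 3. The call was held in 2 of the 12 fits that left out 1 library, those without KO replicate 1 and without KO+ZnO NPs replicate 2, where the value was -4.34 (adjusted p = 0.0138). It was lost without any 1 of the other 10, with values between -2.91 and -3.45 and adjusted p from 0.0649 to 0.113. With RLE factors the adjusted p was 0.0507, and with Y-linked transcripts as a covariate the term was -4.93 (adjusted p = 0.0261). No cause of the difference was tested.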

How the results depend on the processing

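Gene by gene, other listed genes were read only in the fits without 1 library. Of their calls in the functional lists, 7 of 16 in KO against WT, 36 of 51 in WT+ZnO NPs against WT, 1 of 20 in KO+ZnO NPs against KO, 0 of 6 in KO+ZnO NPs against WT+ZnO NPs and 3 of 12 for the interaction were held in all 12. In the marker lists 1 of 19, 50 of 73, 3 of 21, 0 of 7 and 3 of 27 were. Over all alternatives, KO against WT gave 4 to 7 of the 10 genes called and WT+ZnO NPs against WT gave 3 to 6. Of all genes, leaving out single libraries gave 377 to 2060 genes called in KO against WT, 5942 to 9095 in WT+ZnO NPs against WT, 451 to 3195 in KO+ZnO NPs against KO, 1 to 1609 in KO+ZnO NPs against WT+ZnO NPs and 461 to 1646 for the interaction. Of the 10 genes it left 4 to 5, 3 to 6, 0 to 5, 0 to 5 and 0 to 2 called. The libraries whose omission left 0 called in KO+ZnO NPs against KO were KO replicates 2 and 3 and KO+ZnO NPs replicate 3. The cause of these changes was not tested, beyond the smaller number of samples.

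DESeq2 called 3036 genes in KO against WT, 4293 (6 of the 10) in KO+ZnO NPs against KO, 2302 (5 of the 10) in KO+ZnO NPs against WT+ZnO NPs and 3151 (3 of the 10) for the interaction. Fits of only the groups compared called 2794 in KO against WT, 571 (2 of the 10) in KO+ZnO NPs against KO and 0 (0 of the 10) in KO+ZnO NPs against WT+ZnO NPs, where 3067 had an unadjusted p under 0.05. Y-linked transcripts as a covariate gave 957, 3941, 1 (0 of the 10) and 126 genes in KO against WT, WT+ZnO NPs against WT, KO+ZnO NPs against WT+ZnO NPs and the interaction. Without both KO libraries that hold them, the counts were 716 in KO against WT, 16 (0 of the 10) in KO+ZnO NPs against WT+ZnO NPs and 743 for the interaction, with 1 of the 10 called in KO+ZnO NPs against KO. No filter on low counts gave 284 and 1086 genes in KO+ZnO NPs against WT+ZnO NPs and the interaction. RLE factors left 1 of the 10 called in KO+ZnO NPs against WT+ZnO NPs and 0 for the interaction, and library size only gave 2 for the interaction. Leaving out TMM factors moved the median log2 fold change of all genes from 0.056 to 0.163 in WT+ZnO NPs against WT, from 0.040 to -0.112 in KO+ZnO NPs against WT+ZnO NPs and from 0.024 to -0.129 for the interaction.

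The numbers 1 to 3 are not stated to pair libraries. Of 18 same-numbered pairs, whose deviations correlated from -0.343 to 0.429, 4 were over 0.1, and 6 of 12 libraries were closest to their own number, a hint from the data at most. The replicate block called 4 of the 10 genes in KO+ZnO NPs against WT+ZnO NPs, gaining *Mmp10* (4.04, adjusted p = 0.0480) and *Timp1* (1.47, adjusted p = 0.0475), and 2 for the interaction, gaining *Mmp13* (adjusted p = 0.0282). It gained *Mmp13* in KO+ZnO NPs against KO (-1.80, adjusted p = 0.0176) and lost *Mmp14* in WT+ZnO NPs against WT (adjusted p = 0.0565).

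Signs changed for values that were not called. *Timp1* in KO against WT ranged from -0.54 to 0.38 with single libraries left out. *Mmp11* in WT+ZnO NPs against WT was 0.081 with library size only, 0.034 in a fit of the groups compared, 0.0024 with at least 10 counts in every library, and -0.68 to 0.32 with single libraries left out. *Mmp3* in KO+ZnO NPs against WT+ZnO NPs ranged from -0.085 to 1.21. For the interaction, *Mmp2* was -0.10 with library size only, -2.8e-05 with at least 10 counts and -0.10 without both KO libraries with Y-linked transcripts, and ranged from -0.26 to 0.82. The interaction of *Mmp3* was 0.065 with the replicate block and ranged from -0.50 to 0.80, and that of *Mmp10* ranged from -2.39 to 2.90, the upper value, without WT+ZnO NPs replicate 2, resting on 0 counts in that group.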
